A study of Canis lupus familiaris with 33 samples.

Results

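The cerebellum list of methylated regions from adult beagles was compared with the lists of 10 other tissues on autosomes 1 to 38. Peaks of all 11 lists were merged into 450785 union regions, and cerebellum had a peak in 311254 of them (69.0%). Members were the regions with a peak in cerebellum alone, the regions with a peak in every tissue but cerebellum, and the regions that all 11 tissues share. The comparison tissues were cerebrum, stomach, colon, pancreas, liver, kidney, spleen, lung, ovary and mammary gland.

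MBD-seq sequences fragments of sheared DNA that were held back by beads carrying a methyl-CpG-binding domain. The dogs were healthy adults, and the labels name no treatment before euthanasia. The cerebellum had 2 MBD libraries, 1 from animal 679 (labelled female) and 1 from animal jj8 (labelled male), and 1 input library titled jj8 but labelled female. Cerebrum, kidney, liver, lung, pancreas and spleen came from the same pair of animals, colon and stomach from 679 and jj82, and mammary gland and ovary from 679 and 244. Input came from 679 in pancreas, kidney, ovary and mammary gland and from jj8 in the 7 other tissues. The labels speak of 3 dogs while the titles carry 4 animal names. Each tissue has a single list, which the labels name for both of its MBD libraries, so there is no replicate spread and tissues were the only units that could be compared. The lists hold no expression values, so the tissue labels were not checked against marker genes. Genes and sequences at the regions were not analysed here.

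Cytosines in CpG pairs of mammalian DNA are mostly methylated outside CpG islands, and the pattern is set as cells differentiate and is kept by maintenance methylation through division. MBD beads bind methylated CpG and favour fragments that hold several, so a peak marks DNA that is both methylated and fairly CpG-rich. The cerebellum is a part of the hindbrain built largely of granule neurons, small cells with compact nuclei that outnumber all other neurons, with Purkinje cells as its output neurons. A bulk list averages over these cells, and methylation missing from some cells and lower methylation in all cells cannot be told apart.

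The cerebellum list had 340948 autosomal peaks, against 251352 (colon) to 353642 (ovary) in the others with a median of 275414. Its median fold enrichment was 6.79, within the range of 6.19 to 8.80 of the other lists, and its median peak width was 306 bases, within 297 to 359. Its shortest peak was 188 bases long. Read depth is unknown, because the lists give peaks and not reads.

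Cerebellum stood apart in both directions. It alone had a peak in 35014 regions, which is 7.77% of all union regions (95% Wilson interval 7.69% to 7.85%). The other tissues had between 418 (pancreas) and 26411 (ovary) such regions, with a median of 2324.5. Cerebellum alone lacked a peak in 13152 regions, or 2.92% of all union regions (2.87% to 2.97%). The others ranged from 1414 (stomach) to 4367 (lung) here, with a median of 2540. With all deposited peaks no other tissue reached the cerebellum value in either count, and ovary, which came near in the former, had 3435 regions in the latter. Cerebrum, the other brain tissue, had 3815 and 1428.

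**Figure D1:**
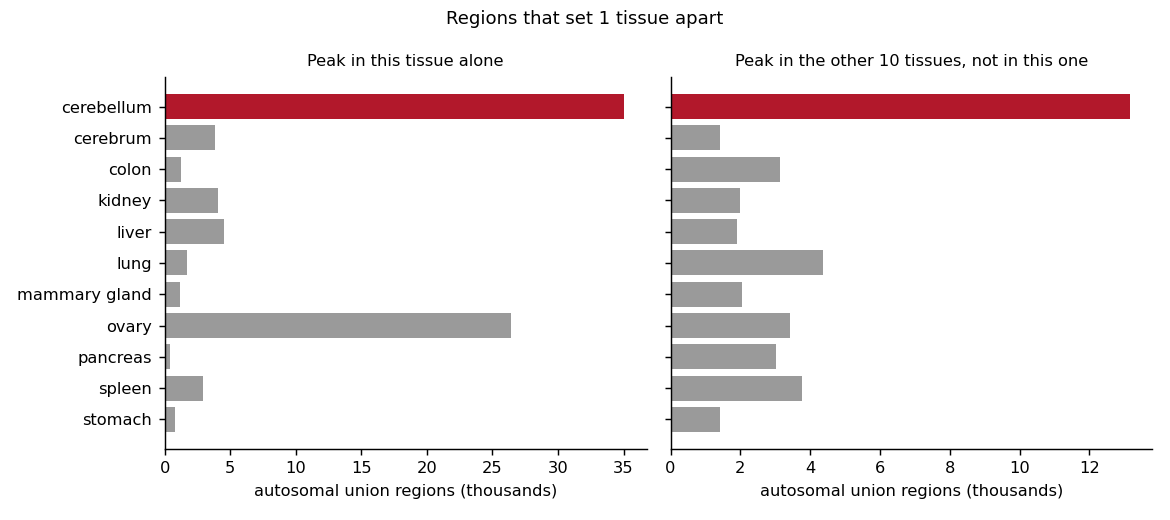
Number of autosomal union regions (axis in units of 1000) with a peak in 1 tissue alone (left) and with a peak in the other 10 tissues but not in this one (right), 1 bar per tissue. Cerebellum (red) had 35014 and 13152 such regions; the next highest tissues were ovary with 26411 on the left and lung with 4367 on the right.

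With 1 list against 10, an exact permutation test cannot give less than 0.0909. Both counts were at that floor (exact permutation tests over the 11 tissues, two-sided, p = 0.0909 each; adjusted p = 0.121 over 4 tests). The count of cerebellum-only regions depended on weak peaks. It was 19323 when every list was limited to its 251352 peaks of highest fold, where the next tissue had 12151. It was 19478 when the upper 50% of each list by fold was kept, where the highest other tissue had 20138 and cerebellum ranked second. Among union regions of at least 300 bases it was 4225, where the highest other tissue had 5154. The cerebellum-lacking count was 6818 with the upper 50% of each list, where the highest other tissue had 2300. With equal list sizes it was 15832, where the highest other tissue had 7297.

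Cerebellum-only regions were short and weak. Their median width was 234 bases (quartiles 212 and 264) against 347 bases over all union regions, and single-tissue regions of the other tissues had medians of 197 to 273 bases. Their median fold was 4.33 (quartiles 3.72 and 5.14), or 0.638 times the median of the cerebellum list, and the other tissues had 0.520 to 0.670 times their own list median. Of the 35014 regions, 1681 (4.80%) lay above the median fold of the cerebellum list. The regions covered 8.79 Mb in all. In width and fold they lay within the range of the single-tissue regions of other tissues, and their number lay above it.

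The strongest cerebellum-only region spanned 27742560 to 27743317 of chromosome 26 (CanFam3.1, as all positions here). Its fold was 15.3, 2.26 times the list median, with a −log10 p-value of 71.1. The next, on chromosome 18 (50641284 to 50641822), reached 14.2. A pair on chromosome 37, at 28453154 to 28453982 and 28454181 to 28454936, had folds of 14.1 and 13.1 and was separated by 198 bases. The fold was 13.8 in a region of chromosome 12, 57099376 to 57099871, and 13.1 in a region of chromosome 24, 39641959 to 39642427. The remaining 4 of the strongest 10 lay on chromosomes 28, 5, 3 and 4, with folds of 12.7, 12.6, 12.6 and 12.4. At all 10 positions the other 10 lists had no peak, although each of these cerebellum peaks had at least 1.82 times the median fold of its list.

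Cerebellum-lacking regions were wider than those of other tissues and, with ovary, the most enriched elsewhere. Their median width was 554 bases (quartiles 392 and 835), above the 352 (liver) to 505 bases (stomach) of regions that only 1 of the other tissues lacked. The typical fold of the 10 tissues with a peak was 1.09 times their list median, against 0.820 (stomach) to 1.05 (ovary) for the corresponding regions of other tissues. In 8105 of the 13152 regions (61.6%) the other 10 tissues had a median above their list medians, and in 646 (4.91%) it was at least 2 times as high. In ovary these shares were 58.0% and 4.45% of its 3435 regions, near those of cerebellum. The regions covered 8.95 Mb. The nearest cerebellum peak was 2138.5 bases away in the median, and in 30.8% of the regions it lay within 1000 bases.

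The strongest cerebellum-lacking region was on chromosome 5 at 15100588 to 15102426. The other tissues had relative folds (fold divided by the list median) from 1.83 in ovary to 5.73 in mammary gland there, with a median of 3.89 and 2.19 in cerebrum. No cerebellum peak lay within 961 bases of it. On chromosome 18 at 52332863 to 52333709 the others ranged from 1.49 (ovary) to 4.54 (lung) with a median of 3.51, and the nearest cerebellum peak was 2050 bases away. On chromosome 20 at 48097823 to 48098823 they ranged from 1.16 (ovary) to 5.19 (lung) with a median of 3.44. On chromosome 15 at 18107328 to 18108489 they ranged from 1.14 (liver) to 5.29 (lung) with a median of 3.46. All 4 were well-enriched regions elsewhere, and the other 6 of the strongest 10, on chromosomes 33, 30, 20, 2, 8 and 10, had medians of 3.24 to 3.34. Ovary was the lowest of the 10 tissues in 7 of these 10 regions and cerebrum in 0. Over all 13152 regions the order was another, with pancreas lowest in 15.0%, cerebrum in 14.7% and ovary in 11.0%.

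Just outside both classes lay the regions in which cerebellum was paired with 1 other tissue. Cerebellum and 1 other tissue shared 24531 regions, with a median cerebellum fold of 4.87. The other tissue was ovary in 14565 (59.4%; 95% Wilson interval 58.76% to 59.99%), cerebrum in 4385 (17.9%) and kidney in 2595 (10.6%). Each remaining tissue held between 145 (colon) and 1011 (liver). With equal list sizes the share of ovary, the longest list, was 36.4% beside cerebellum. Over all regions with a peak in exactly 2 tissues, ovary had a peak in 59.3% and cerebrum in 20.9%. Of the 2-tissue regions with ovary, 54.0% had cerebellum as the other tissue, and of those with cerebrum 46.2%. For the remaining tissues this was 9.36% (colon) to 29.2% (kidney). Cerebellum and 1 other tissue were without a peak in 7729 regions, and the other was ovary in 1338 (17.3%), cerebrum in 1305 (16.9%) and pancreas in 959 (12.4%). Over all regions that exactly 2 tissues lacked, ovary was among them in 15.8%, cerebrum in 13.1% and pancreas in 21.5%. Of such regions that cerebrum lacked, cerebellum was the other tissue in 39.9%, and of those that ovary lacked in 33.9%. For the remaining tissues this was 10.3% (colon) to 20.5% (kidney), with 17.9% in pancreas. Shares over all regions of either kind include the pairs of cerebellum and count each region for 2 tissues. They are thus on another base than the shares beside cerebellum.

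In the 121527 shared regions, in which every tissue had a peak, the highest fold in a region was divided by the list median and set against the median of the other 10 tissues, as a log2 difference. The median difference in cerebellum was −0.03, near that of other tissues (−0.14 in ovary to 0.12 in lung), but the spread was the widest of the 11. The interquartile range was 0.80 against 0.51 (kidney) to 0.77 (ovary), and the lowest 5% of regions began at −1.23 against −0.995 (ovary) to −0.65 (kidney). Cerebellum was the lowest tissue in 18294 regions (15.1%), second to ovary with 19131 (15.7%). It was the highest in 18551 (15.3%), second to mammary gland with 20341 (16.7%).

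A difference of at least 2-fold with cerebellum below all other tissues was found in 8973 shared regions (7.38%). The same count was 1059 (kidney) to 4866 (ovary) in the other tissues, with a median of 1884.5. A 2-fold difference above all others was found in 2627 regions (2.16%), against 56 (stomach) to 4037 (mammary gland), with a median of 468.5. Cerebellum was thus the highest of 11 tissues for the count below and ranked second to mammary gland for the count above (exact permutation tests over the 11 tissues, two-sided, p = 0.0909 and p = 0.182; adjusted p = 0.121 and 0.182 over 4 tests). With the upper 50% of each list the counts were 1402 below, where the highest other tissue had 1423, and 98 above, where the highest other tissue had 3131 and cerebellum had rank 3. With equal list sizes they were 6777 below, where the highest other tissue had 6793, and 423 above, where the highest other tissue had 6034.

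**Figure D2:**
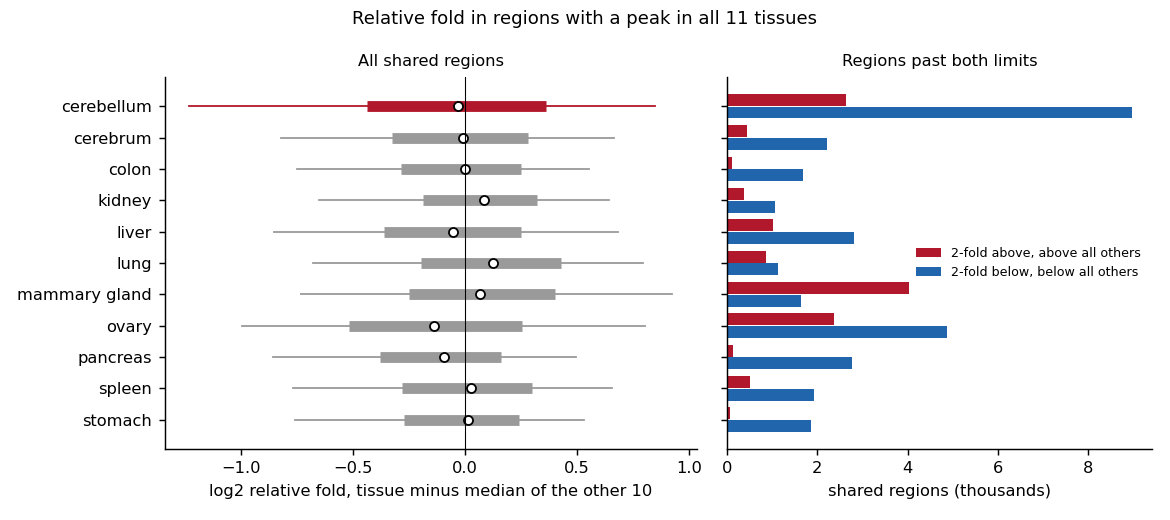
Left: log2 relative fold of each tissue minus the median of the other 10 over 121527 shared regions; circles are medians, thick bars the interquartile range and thin lines the span from 5% to 95% of regions. Right: number of shared regions (axis in units of 1000) in which a tissue lay at least 2-fold above (red) or below (blue) the median and outside the range of all others; cerebellum had 2627 and 8973.

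A call below needs a cerebellum peak under folds that are high elsewhere, so the strength of these regions in other tissues is set by the rule. Their median width was 1072 bases, against 798 for all shared regions and 532 for the regions called above. Their median difference was −1.38, or 2.60-fold, and 1161 of them were at least 4-fold lower in cerebellum. Cerebellum peaks covered 50.8% of such a region in the median and those of the other tissues 84.1%. None of the regions called above reached 4-fold. Their median difference was 1.13, or 2.18-fold, and coverage was 93.0% in cerebellum against 72.4% in the others. Fold and coverage come from the same peaks and are not independent.

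Among the regions called below, the one with the largest difference lay on chromosome 20 at 54721601 to 54724958. Cerebellum had a relative fold of 0.289 there, and the others ran from 1.37 (ovary) to 4.71 (mammary gland) with a median of 3.08, a 10.6-fold difference. On chromosome 24 at 21890212 to 21890828 cerebellum had 0.290 and the others 1.31 (cerebrum) to 3.46 (lung) with a median of 2.90. On chromosome 22 at 58105411 to 58107004 it had 0.345, against 1.72 (ovary) to 4.63 (colon) with a median of 3.39. Cerebrum had 2.74, 1.31 and 2.002 in turn. The other 7 of the leading 10 lay on chromosomes 16, 34, 7, 20, 7, 2 and 10, with differences of 8.89-fold to 9.72-fold. Cerebellum peaks in all 10 were near the bottom of the list, with folds of 1.96 to 2.63.

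Among the regions called above, the leading one lay on chromosome 16 at 54513124 to 54513766. Cerebellum had a relative fold of 1.82 and the others 0.374 (lung) to 1.52 (ovary) with a median of 0.469, a 3.89-fold difference, and cerebrum had 1.14. On chromosome 4 at 27797540 to 27798031 cerebellum had 2.54 and the others 0.474 (stomach) to 1.17 (cerebrum) with a median of 0.669. On chromosome 8 at 65508526 to 65509441 it had 2.17 and the others 0.330 (stomach) to 1.13 (kidney) with a median of 0.580. Chromosome 16 held 3 of the leading 10, the other ones at 54982274 to 54982913 and 55794712 to 55795182, with differences of 3.39-fold and 3.35-fold. Ovary was the highest of the other tissues in 5 of the leading 10 and cerebrum in 2.

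**Figure D3:**
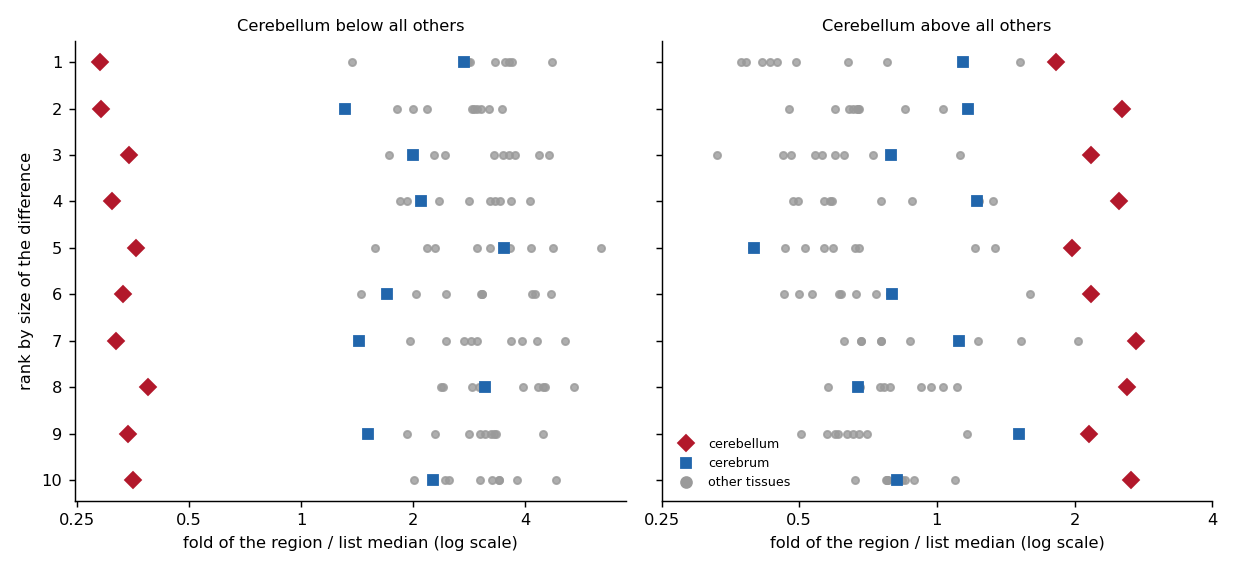
Fold of a region divided by the median of its list (log axis) in 11 tissues, for the 10 shared regions with the largest difference below (left) and above (right) all other tissues, in order of size. Cerebellum (red diamonds) lies between 0.289 and 0.387 on the left and between 1.82 and 2.72 on the right; blue squares are cerebrum and grey points the other 9 tissues.

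Ovary and cerebrum were next to cerebellum more often than other tissues were. In the regions called above, the next highest tissue was ovary in 948 (36.1%) and cerebrum in 564 (21.5%), while over all shared regions these were the highest of the other 10 tissues in 13.4% and 11.0%. In the regions called below, the next lowest was ovary in 2509 (28.0%) and cerebrum in 1529 (17.0%), against 19.6% and 9.90% over all shared regions. A call requires cerebellum to lie outside the range of every other tissue, so their shifts in that direction are smaller by construction. Against the other 9 tissues cerebrum had a median log2 difference of 0.36 in the regions called above and −0.22 in those called below, and it passed 2-fold upwards in 124 of the former (4.72%) and downwards in 513 of the latter (5.72%). Over all shared regions these shares were 0.683% and 2.85%. Median relative folds of the other tissues were 0.911 in regions called above, 2.09 in those called below and 1.46 over all shared regions. The shares were not compared among regions of like strength or width.

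The difference in cerebellum depended on the width and strength of a region. In the narrowest class of shared regions, 258 to 405 bases, the median log2 difference was 0.30, above the −0.18 to 0.14 of other tissues. In the widest class, from 1647 bases, it was −0.27, within the −0.48 to 0.41 of the others. By the median relative fold of the other tissues, the weakest class had a cerebellum difference of 0.38, above the −0.21 to 0.27 of other tissues, and 7.69% of its regions were called above. In the strongest class the difference was −0.36, within −0.63 to 0.59, and 11.3% of its regions were called below and 0 above. The difference therefore fell from weak to strong regions. Strength was taken from the other tissues alone, and the difference is measured against the same values.

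The inner shape of shared regions was ordinary in cerebellum. Its peaks covered 83.6% of a region in the median, rank 6 among 11 tissues, with 71.6% (pancreas) to 92.2% (ovary) in the others. Cerebellum had 1.23 peaks per shared region on average, against 1.12 to 1.303. In the 82155 regions with exactly 1 peak in each tissue, the cerebellum summit lay 16 bases from the median summit of the others in the median, against 13 to 19 bases for the other tissues.

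Missing regions lay close together. After a cerebellum-lacking region, the next union region was also cerebellum-lacking in 11.2% of cases, while such regions made up 2.92% of all. That is 3.83 times the share of the class, against 1.13 (stomach) to 2.67 times (ovary) for the regions that another tissue lacked. Runs of 2 or more neighbouring regions held 2693 of the 13152 regions (20.5%), and in the other tissues 0.707% to 3.87% of their own. There were 11 runs of at least 5 regions in cerebellum and 0 in the other tissues. The longest had 7 regions on chromosome 26 at 704748 to 713834, where the median relative fold of the other tissues ran from 0.888 to 1.48 over the 7 regions. A run of 6 lay on chromosome 17 at 13096446 to 13108170.

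By windows of 100 kb, 593 of 22027 windows with a union region held 5 or more cerebellum-lacking regions, and they held 31.0% of the class. The fullest lay on chromosome 18 at 52900001 to 53000000, where 20 of 68 union regions were cerebellum-lacking. Cerebellum had 10 peaks in this window and the other tissues 40 (pancreas) to 57 (liver), with a median of 47.5 and 46 in cerebrum. On chromosome 20 at 3300001 to 3400000 it was 16 of 46, and cerebellum had 1 peak against 27 to 44. On chromosomes 17, 26 and 5 windows with 16, 16 and 15 such regions began at 63500001, 700001 and 57200001, with 17, 26 and 20 cerebellum peaks. The windows were chosen for regions that cerebellum lacks, so its low peak counts in them are a description. The shared regions left in them were also low, with median differences of −1.60 (a single region) to −0.82.

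These windows led to a count, chosen after the values were seen, of 100-kb windows in which a tissue lacks most of what the others hold. It used windows with at least 10 regions that have a peak in at least 9 of the other 10 tissues, and counted those in which the tissue had a peak in fewer than 50% of them. Cerebellum had 211 such windows among 5837 (3.61%), on 36 of the 38 autosomes. Lung and ovary had 1 each and the other 8 tissues 0. With equal list sizes cerebellum had 353 and the highest other tissue 10. With the upper 50% of each list it had 122 and the highest other tissue 1.

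In the 211 windows, cerebellum had a peak in 1275 of 3469 such regions (36.8%). The low share in cerebellum and the high shares elsewhere, 95.3% (ovary) to 99.4%, are set by how windows and regions were chosen and are given as a description. What can be compared is the number of such windows per tissue, chosen in the same way for each. The windows held 1529 cerebellum-lacking regions, 11.6% of the class in 1.78% of the union regions. They also held 1158 regions shared by the 11 tissues, where the median log2 difference was −0.81 in cerebellum, −0.08 in cerebrum and −0.20 (ovary) to 0.24 in the others. Of these, 460 (39.7%) were called below and 4 above. Cerebellum-only regions made up 0.924% of union regions there.

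Some stretches were almost free of cerebellum peaks. On chromosome 9 at 24800001 to 24900000 cerebellum had a peak in 0 of 11 such regions and 2 peaks in all, against 16 to 33 in the other tissues and 24 in cerebrum. On chromosome 3, 17 neighbouring regions between 51391630 and 51489492, a span of 97.9 kb, held no cerebellum peak at all, and cerebrum had 29 peaks there. On chromosome 16, 15 neighbouring regions between 15620402 and 15689237 held 0 cerebellum peaks and 28 cerebrum peaks. Cerebellum had 34 such runs of at least 10 regions, and no other tissue had a run longer than 8 (pancreas). The longest stretches of neighbouring windows measured 400 kb, on chromosome 5 at 56900001 to 57300000 and on chromosome 8 at 60300001 to 60700000. In the former, cerebellum had a peak in 34 of 93 regions, and in the latter in 18 of 63. The peaks of the other tissues in these stretches follow from the choice of regions.

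**Figure D4:**
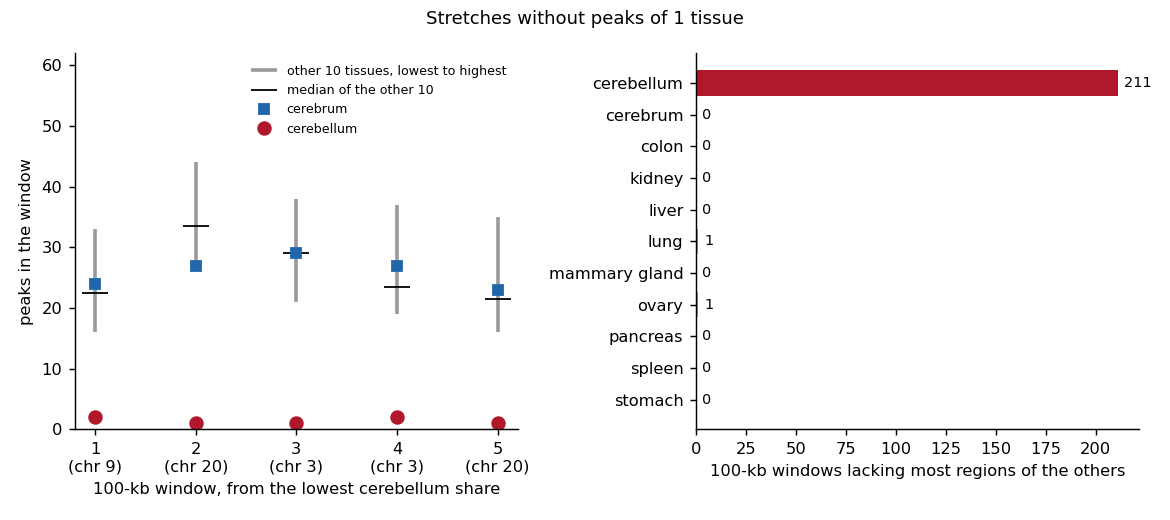
Left: number of peaks in the 5 windows of 100 kb with the lowest share of cerebellum peaks; the grey line spans the other 10 tissues, the black mark is their median. Cerebellum had 1 or 2 peaks in each and the other tissues at least 16. Right: number of 100-kb windows in which a tissue had a peak in fewer than 50% of the regions that at least 9 of the other 10 hold.

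Cerebellum-only regions had more neighbours of their class than those of any other tissue, but not relative to the size of the class. The next union region was of the same class in 13.8% of cases, 1.78 times the 7.77% that the class makes up of all union regions. This ratio was lower in ovary (1.61) and higher in the other 9 tissues, from 1.87 (kidney) to 29.1 (colon), whose classes are far smaller. The unscaled share was 1.18% (lung) to 9.41% (ovary) in the others. Runs of 2 or more held 8923 of the 35014 regions (25.5%), against 2.35% (lung) to 17.7% (ovary) in the others. There were 12 runs of at least 5 regions, and at most 3 (ovary) in another tissue. The fullest 100-kb window lay on chromosome 5 at 52900001 to 53000000, where 16 of 27 union regions were cerebellum-only. Cerebellum had 24 peaks in it and the other tissues 2 (liver) to 7 (cerebrum). With the upper 50% of each list, or with equal list sizes, no window held more than 9 such regions. The longest run, 7 regions between 52939815 and 52954434 of chromosome 5, lay in the fullest window, with folds of 2.17 to 4.65. Windows on chromosomes 14, 28, 10 and 12 that began at 56500001, 24000001, 7500001 and 63400001 held 15, 13, 12 and 12. The windows were chosen for these regions, so their peak counts are a description. In the one on chromosome 28 cerebellum had 41 peaks against 13 to 20, and in the one on chromosome 12 it had 30 against 9 to 17.

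Both classes were accompanied by shifts in nearby shared regions. The shared region nearest to a cerebellum-lacking region had a median log2 difference of −0.43, and in other tissues the corresponding value was −0.20 (ovary) to −0.01 (lung). The shared region nearest to a cerebellum-only region had 0.22, against −0.00 (pancreas) to 0.14 (lung). Over the 1673 windows of 1 Mb with at least 20 shared regions, the window median differed with an SD of 0.21 in cerebellum, against 0.09 (stomach) to 0.18 (ovary). Cerebellum was at or under −0.5 in 15 windows and at or over 0.5 in 14. Ovary was at or under −0.5 in 37 windows, more than cerebellum, and the other tissues in 0. Lung and mammary gland were at or over 0.5 in 8 windows each, and the rest in 0. The lowest, −0.88, lay on chromosome 7 at 52000001 to 53000000, where the others ran from −0.11 to 0.14, and the next, −0.83, on chromosome 1 at 53000001 to 54000000, with the others at −0.18 to 0.28. The highest, 0.64, lay on chromosome 38 at 12000001 to 13000000, with the others at −0.32 to 0.24.

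Cerebellum-only and cerebellum-lacking regions were frequent in different parts of the genome. Windows of 1 Mb were put in 5 classes by their number of union regions. In the sparsest, with 14 to 101 regions, 10.9% of union regions were cerebellum-only and 0.971% cerebellum-lacking. In the densest, with 305 to 566 regions, these were 5.63% and 3.90%. The sparsest class held 11.3% of cerebellum-only regions, against 1.49% to 11.1% of the single-tissue regions of other tissues and 8.06% of all union regions. The densest class held 49.8% of cerebellum-lacking regions, against 24.9% to 46.6% of those that another tissue lacked and 37.3% of all union regions. Shared regions followed, with a median log2 difference of 0.27 in the sparsest class and −0.12 in the densest, and 1.77% and 8.998% of them called below. Along the chromosomes the contrast was small: the last 10% of each autosome together held 14.7% of union regions, 12.2% of cerebellum-only and 15.1% of cerebellum-lacking regions.

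Autosomes also differed in these shares. The share of cerebellum-only regions ran from 5.31% on chromosome 9 (95% Wilson interval 4.99% to 5.65%) to 10.2% on chromosome 35 (9.47% to 11.1%) and 10.2% on chromosome 36. The share of cerebellum-lacking regions ran from 1.36% on chromosome 32 (1.07% to 1.74%) to 5.03% on chromosome 9 (4.71% to 5.36%), with chromosome 20 at 4.297%, chromosome 5 at 4.20% and chromosome 26 at 4.05%. These 4 had 231 to 303 union regions per Mb and chromosome 32 had 121. Chromosomes 35 and 36 had 209 and 210, and the cerebellum-only share on chromosome 32 was 8.50%. Across the 38 autosomes the shares had a Pearson r of −0.824 (Spearman rho −0.799). With the number of union regions per Mb, the lacking share had an r of 0.712 and the cerebellum-only share an r of −0.519. All points come from the same lists and the shares have a common denominator, so these are descriptions. The share called below among shared regions had an r of 0.915 with the lacking share. By chromosome, the median width of cerebellum-only regions ran from 229 to 243 bases and that of cerebellum-lacking regions from 363.5 (chromosome 32) to 616 (chromosome 38). Shared regions ran from 390 (chromosome 32) to 938 bases (chromosome 18).

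**Figure D5:**
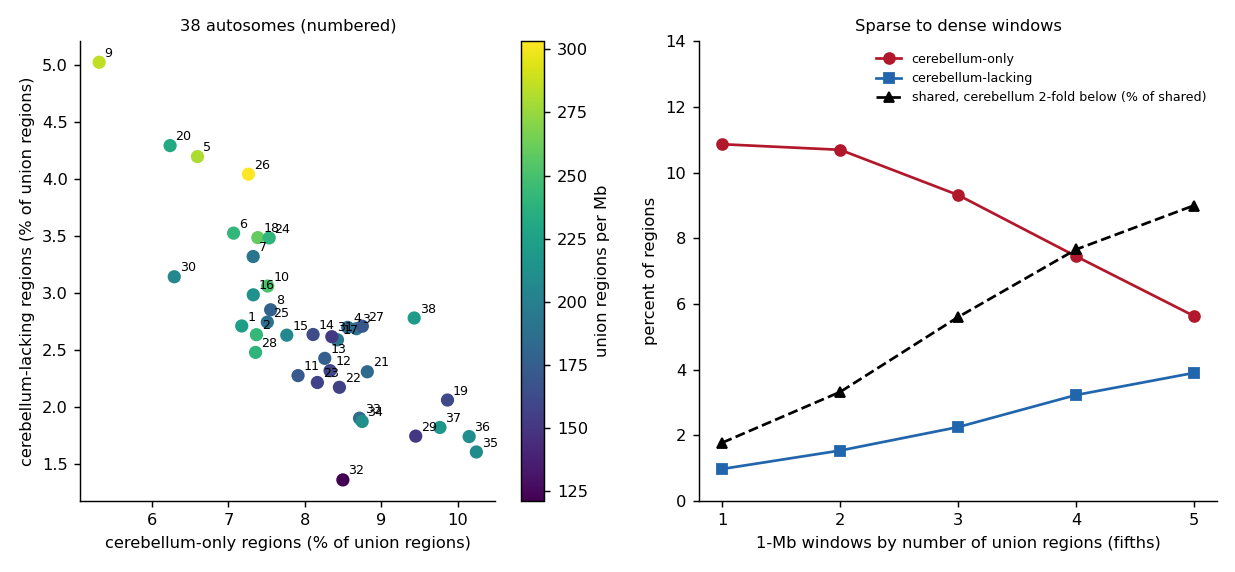
Left: percent of the union regions of each autosome that were cerebellum-only (x axis) and cerebellum-lacking (y axis), coloured by union regions per Mb; chromosome 9 lies at 5.31% and 5.03%. Right: the same percents, and the percent of shared regions called below, in 1-Mb windows from the sparsest to the densest class; cerebellum-only falls from 10.9% to 5.63% and cerebellum-lacking rises from 0.971% to 3.90%.

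The counts were also made within the tissues that share animals or input with cerebellum. Among the 7 tissues of animals 679 and jj8, cerebellum had 51765 regions of its own, and the next tissue 9075. It alone lacked 17456, and the next tissue 7829. Among the 7 tissues with input jj8 the numbers were 59054 and 18682, against 10134 and 7191. Among the 6 lists that reach below 200 bases in peak length they were 83085 and 22790, against 15858 and 7638. Cerebellum was the highest in each of these groups. None of the groups includes ovary, the tissue nearest to cerebellum in regions of its own. Leaving out ovary alone gave 50029 and 14685, against 7930 and 4691 in the next tissue.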

How the data were processed

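MBD-seq libraries of 11 tissues were represented by 1 deposited peak list per tissue. Positions refer to CanFam3.1, per the submitters' processing notes; the peak caller and filters, and how both libraries were combined, were not given in the sources used here. The deposited lists give, per peak, a fold enrichment (a ratio to a control that is not stated), the −log10 p-value as the authors' caller wrote it, and a deposited score and q-value, which were not used. Column meanings follow the narrow-peak format and the values.

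Autosomal peaks that touched or overlapped were merged, and a tissue counted as present with an overlap of at least 1 base. Folds were compared only after division by the list median. Shared regions were called at a 2-fold difference from the median of the other 10 tissues with cerebellum outside their range. Wilson intervals (95%) of shares reflect counting error alone. Tissues were compared by exact permutation. The regions named were the 10 strongest of each class, the 5 fullest windows of 100 kb, and the longest runs of 5 or more regions. Members, lists and tests were chosen with earlier results of these data known, and the count of windows without cerebellum peaks after its values were seen. Promoter counts were planned and not made, since no annotation of the build was used here. The classification was tested on simulated lists. Alternatives are given in the closing section. Analyses used Python 3.11.15, numpy 2.4.6, pandas 2.3.3 and scipy 1.17.1.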

Additional observations from a re-analysis of the deposited data

Results flagged for a closer look

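Within the 7 tissues of animals 679 and jj8, cerebellum lay far from the other lists in 6 measures, each with a gap to the nearest tissue that was large for the range of the group. It had 35014 regions of its own (nearest tissue liver, 4500) and alone lacked 13152 (lung, 4367). In shared regions it had 2627 called above and 8973 called below (liver, 1015 and 2815). It had 211 windows of 100 kb without most regions of the others (lung, 1), and its lacking regions had a median width of 554 bases (pancreas, 417). Of these measures, all but the width also stood apart within the 7 tissues with input jj8. Within the 4 tissues with input 679, ovary stood apart with 26411 regions of its own and pancreas with a median width of 197 bases of its own regions. Ovary also had 1 depleted window where the other 3 had 0, which meets the limit with any single count and shows nothing. The limit is meant to flag about 1 in 20 such groups by chance. This rate does not apply to the depleted windows, a measure chosen after the cerebellum values were seen. It need not hold for the other measures, which were chosen with earlier results of these data known. The measures share the same lists and are not independent.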

How the results depend on the processing

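The promoter counts and their wider window were not run. No paired analysis was possible because each tissue has 1 list for both libraries. Alternatives on single animals or input were added after the data were seen, as were those on the depleted windows. Cerebellum was the highest tissue in 19 of 19 alternatives for lacking regions and for depleted windows, in 17 of 19 for cerebellum-only regions, in 18 of 20 for the count below and in 5 of 20 for the count above. The cause of each change was not tested. With the upper 50% of each list, the counts were 19478 (only), 6818 (lacking), 98 (above), 1402 (below) and 122 (depleted windows); median widths were 290 bases (only) and 997.5 bases (lacking), the highest chromosome shares 11.5% (chromosome 32) and 4.50%, and the share with ovary 48.6%. With equal list sizes, they were 19323 (only), 423 (above) and 353 (depleted windows), with widths of 263 and 647 bases, highest chromosome shares of 6.88% and 6.68%, and 36.4% with ovary. Both alternatives gave at most 9 cerebellum-only regions in 1 window of 100 kb. Among regions of at least 300 bases 4225 were cerebellum-only, and the highest other tissue had 5154. Depleted windows numbered 367 when 50% of a region had to be covered. Within the 6 lists that reach below 200 bases in peak length, the counts were 83085 (only), 22790 (lacking) and 459 (depleted windows). Within the 7 tissues of the same animals depleted windows numbered 329. Within the 7 with the same input, the counts were 59054 (only), 4642 (above) and 360 (depleted windows), and within the 5 that share both, 61373 (only), 23126 (lacking), 5187 (above) and 578 (depleted windows, next tissue 52). At 1.5-fold, 12417 regions were above and 15832 below, and with percent ranks 10391 were above. Leaving out 1 other tissue in turn gave 35164 to 50029 (only), 13541 to 14685 (lacking), 2658 to 3501 (above), 8820 to 10081 (below) and 220 to 249 (depleted windows). The order of autosomes was similar under both list alternatives (Spearman rho 0.859 to 0.965). Read depth is unknown, and its part in these counts was not tested.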

Other observations

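Windows rich in cerebellum peaks were counted as well. Of regions with a peak in at most 1 of the other 10 tissues, cerebellum had a peak in 10 or more within 522 windows of 100 kb, and in up to 21 in a single window. Ovary had 180 such windows, liver 6, kidney 2, mammary gland 1 and the other 6 tissues 0. Cerebrum reached at most 9 such regions in a window. The counts of windows were not scaled to the number of such regions in a tissue. Cerebellum had the most single-tissue regions, 35014 against 26411 in ovary and 4500 in liver. This way of counting windows was chosen after the data were seen, and no test was made of it.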
